A study of Mus musculus with 5 samples.

Results

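In cultures that the labels call mouse aortic endothelial cells, 54 genes lay lower on both TNF-LTBR arrays than on all 3 control arrays, out of 10920 genes bright enough to be compared and 18194 genes on the array. The 54 genes were selected on these values themselves, as log2(intensity + 16) with 1 probe set per gene, a mean over the 5 arrays of at least 7.17 (an intensity of about 128) and a TNF-LTBR mean at least 0.7 below the control mean. Their direction and the size of their difference are therefore a description of the choice and no test of it. Genes named Itga, Itgb, Lama, Lamb, Lamc or Col with a number were left out, which removed 1 gene, Itga7. The selected genes include the M-band protein gene Myom1, the fibrinogen-like gene Fgl2, secreted modulators of Wnt, BMP and semaphorin signalling, 3 genes of glycogen metabolism and several regulators of cyclic nucleotide and calcineurin signalling. The lists of these last 3 pathways were drawn up after the values were seen, and their medians were -0.09, -0.14 and -0.10. Of their genes that were not selected, 3 of 17, 1 of 25 and 1 of 11 were below all controls, against 6.34% of all genes.

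TNF and the lymphotoxin beta receptor both act through NF-kB, a family of transcription factors that is best known for switching genes on. TNF works mainly through the canonical branch, and the lymphotoxin beta receptor also engages the slower non-canonical branch. Vessel wall cells in inflammation are also known to lose parts of their resting and contractile gene programmes.

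The study compared 3 arrays titled control with 2 arrays titled TNF-LTBR. Each title gives 24 h, and the cells were of C57BL/6J background. The treatment note is the same for all 5 samples and mentions only PBS, so the TNF-LTBR group is known by its titles, and no label used here gives the agonists or their doses. The design text describes stimulation of aortic endothelial cells in culture, and whether the arrays of 1 group stand for different cultures or animals is not stated, so a p-value here reflects nothing but array-to-array spread, which may be technical. In such bulk RNA, fewer cells of a type and less RNA per cell cannot be told apart.

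The arrays fell into pairs that crossed the groups. Across the 10920 genes, control array 2 correlated most closely with TNF-LTBR array 1 (r = 0.976) and control array 3 with TNF-LTBR array 2 (r = 0.978), while the TNF-LTBR arrays correlated with each other at 0.901; these are correlations across genes, which are not independent replicates. Of 20 endothelial identity genes, 10 were below the brightness minimum, among them the defining genes Pecam1, Cdh5, Tek, Tie1 and Vwf. The other 10, Eng, Plvap, Kdr, Clec14a, Egfl7, Emcn, Ramp2, Esam, Flt1 and Mmrn2, were above it, as were all 14 fibroblast and pericyte genes. The labelled cell type thus rests on only a part of its markers here. By limma over all genes, 0 genes were called lower (0%) at an adjusted p under 0.05, with a smallest adjusted p of 0.999. At an unadjusted p under 0.05, 87 genes were lower, and limma without the intensity trend and limma with array quality weights gave 96 and 92, again with 0 after adjustment.

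Complete separation of the groups was not rare. Both TNF-LTBR arrays lay below all controls for 692 genes (6.34%) and above all controls for 758 (6.94%). With the difference limit of 0.7 added, 55 genes (0.504%) remained on the lower side, the 54 selected genes and Itga7, and 65 (0.595%) on the higher side. A further 100 genes had a difference of -0.7 or less but overlapped between the groups.

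**Figure D1:**
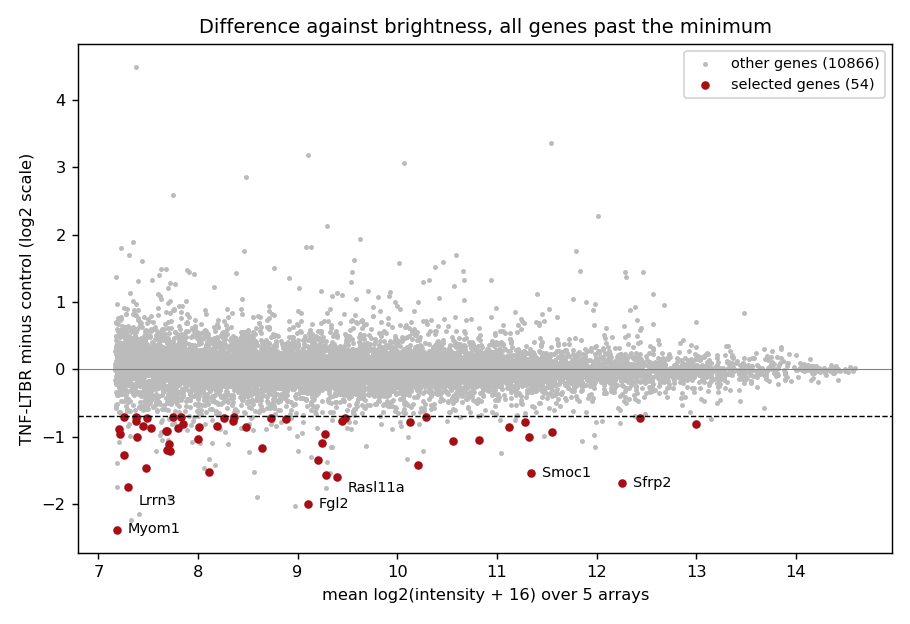
Difference between the TNF-LTBR and control means (log2 scale, vertical axis) against mean log2(intensity + 16) over the 5 arrays (horizontal axis) for the 10920 genes past the brightness minimum. The 54 selected genes (red) lie at or below the dashed line at -0.7 from the dimmest genes, such as Myom1, to bright ones such as Sfrp2, and grey points below the line belong to genes whose groups overlap or to Itga7.

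The differences of the 54 genes ran from -2.38 for Myom1 to -0.70 for Pigz, with a median of -0.90 against -0.0035 over all 10920 genes, and 22 genes were at -1 or lower. They were dimmer than most, with a median brightness of 8.30 against 9.57, and 23 of them had a mean under 8. The control arrays also spread more for them, with a median control SD of 0.43 against 0.22 for all genes. The gap, which is the lowest control array minus the highest TNF-LTBR array, was over 0.5 for 14 genes and under 0.1 for 11, and it exceeded the range of the 3 controls for 6 genes. For 33 genes the difference was more than double the control SD.

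The control arrays did not share the heights evenly. Control array 1 was the highest control for 33 of the 54 genes, against 27.1% of all genes, control array 2 for 9 (32.0% of all genes) and control array 3 for 12 (40.9%). TNF-LTBR array 1 was the lower of its pair for 35 of the 54, against 50.03% of all genes. Relative to each gene's own control mean, the median of the 54 genes was 0.21 on control array 1, -0.27 on control array 2, -0.10 on control array 3, -1.03 on TNF-LTBR array 1 and -0.77 on TNF-LTBR array 2.

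**Figure D2:**
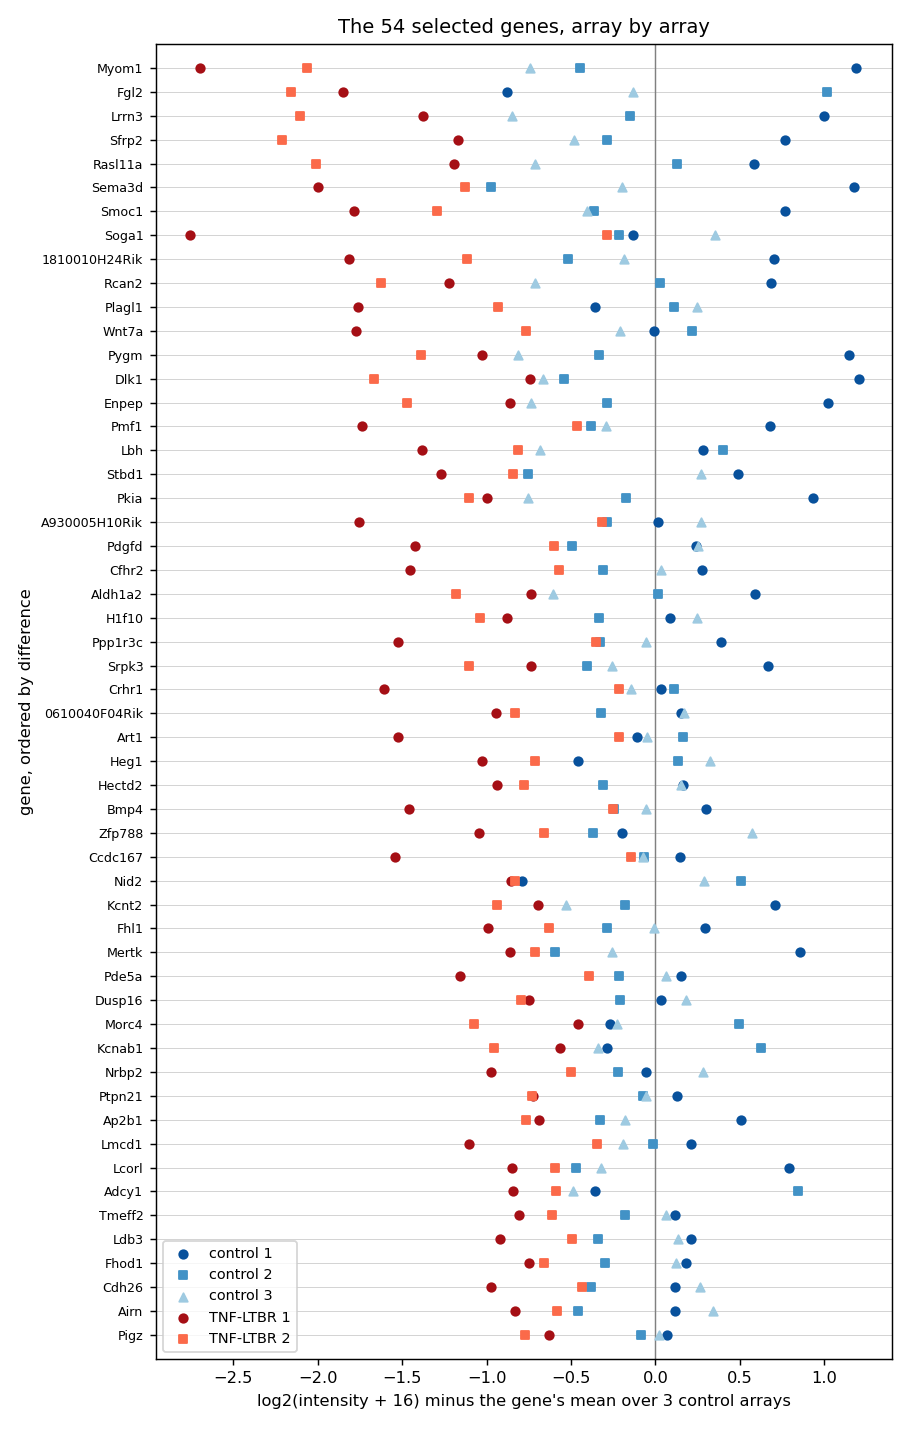
Values of the 54 selected genes on each array as log2(intensity + 16) minus the gene's own mean over the 3 control arrays (horizontal axis), with genes ordered by their difference from top to bottom. Blue points are the 3 control arrays and red points the 2 TNF-LTBR arrays; by the choice of genes every red point lies left of every blue point of its row, and the distance ranges from 1.33 for Myom1 to under 0.1 for 11 genes.

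Among the muscle structural genes, Myom1 had the largest difference of all 54 genes, and the others stood lower in the order. Myom1 encodes myomesin, which links myosin filaments at the M-band of striated muscle. In the order of their numbers, the control arrays gave intensities of 625.8, 190.7 and 152.7, and the TNF-LTBR arrays 27.5 and 51.3. On the log2(intensity + 16) scale the control mean was 8.14 ± 1.04 (SD, n = 3) and the TNF-LTBR mean 5.76 ± 0.45 (SD, n = 2), 5.21-fold lower. Control array 1 stood well above the other controls, yet the gap of 1.33 was the widest of all 54 genes. Myom1 is also the dimmest of them, with a mean of 7.19, so it met the brightness limit only with all 3 controls included. Without control array 1 its difference was -1.79.

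Ldb3 encodes a Z-disc protein with PDZ and LIM domains. It lay at 8.32, 7.77 and 8.24 on the control arrays and at 7.19 and 7.61 on the TNF-LTBR arrays, a difference of -0.71 with a gap of 0.15. Its other probe sets were nearly level, at 0.01 and -0.04. Fhl1 and Lmcd1, which encode LIM domain proteins of muscle, were among the brightest selected genes. The control mean of Fhl1 was 13.33 ± 0.29 and its TNF-LTBR mean 12.52 ± 0.25. The corresponding means of Lmcd1 were 12.72 ± 0.20 and 12.00 ± 0.53 (SD, n = 3 and n = 2 for both genes). Another Fhl1 probe set past the brightness minimum differed by -0.27 with overlapping groups. The formin gene Fhod1, whose product bundles actin filaments, differed by -0.71, and Srpk3, a protein kinase of muscle, by -0.92. Another Srpk3 probe set past the brightness minimum differed by 0.30, and dimmer ones by 0.27 and -0.17.

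The other muscle genes did not move as one group. Of 32 striated muscle and sarcomere genes, 11 were bright enough, and 6 of them lay lower and 5 higher, with a median of -0.18. The median was 0.058 without TNF-LTBR replicate 2 and -0.024 without control replicate 1. Both TNF-LTBR arrays lay below all controls for Myom1, Ldb3 and Ckm. Apart from the selected Myom1 and Ldb3, this was 1 of 9 genes, against 6.34% of all genes. Ckm, the muscle creatine kinase, differed by -0.28. Ankrd1 and Pdlim5, at 0.48 and 0.24, lay above all controls on both TNF-LTBR arrays, against 6.94% of all genes. Myl4, an atrial myosin light chain, differed by -0.40 with a slight overlap. Myl9, a regulatory light chain of smooth muscle myosin, differed by -1.76 with overlapping groups. Of 11 LIM domain genes of muscle, a list drawn up after the values were seen, 7 lay lower (median -0.23). Beyond the selected Fhl1, Lmcd1 and Ldb3, both TNF-LTBR arrays were below all controls for 2 of its 8 genes, against 6.34% of all genes. On this list Pdlim4 and Pdlim5 were above all controls, against 6.94% of all genes. Within it Pdlim4 was 1.45 higher, with 5.47 on control array 1 and 8.10 to 8.78 on the other 4 arrays.

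Fgl2 encodes fibrinogen-like protein 2, a membrane prothrombinase and secreted immune regulator. The control arrays were at 9.02, 10.92 and 9.77, and the TNF-LTBR arrays at 8.05 and 7.74. The means were 9.90 ± 0.95 (SD, n = 3) and 7.90 ± 0.22 (SD, n = 2), 4.02-fold lower, with a gap of 0.97. Unlike Myom1, its highest control was array 2. A second Fgl2 probe set differed by -1.68 with a gap of 0.98, so both measurements of this transcript separated the groups. Of 12 coagulation and fibrinolysis genes, 7 lay lower and 5 higher, with a median of -0.13 that turned to 0.27 without TNF-LTBR replicate 2 and to 0.08 without control replicate 2. The thrombin receptor gene F2r, at -0.20, was the only other one without overlap, or 1 of 11, against 6.34% of all genes below all controls. Tissue factor, F3, differed by -0.49 with overlapping groups.

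Of the 54 genes, 47 had an entry in the RefSeq promoter table (GRCm38.p6), which runs from 250 bases before to 50 after each listed start. The upstream 250 bases are shown 5′ to 3′ for Myom1 and Fgl2, which had the largest differences, and for Ldb3, the other selected sarcomere gene. Capitals mark matches to the searched motifs. They lie at chr17:71019307-71019556 on the plus strand for Myom1, chr5:21372423-21372672 on the plus strand for Fgl2 and chr14:34588682-34588931 on the minus strand for Ldb3, at 1 of its 2 listed starts.
Myom1: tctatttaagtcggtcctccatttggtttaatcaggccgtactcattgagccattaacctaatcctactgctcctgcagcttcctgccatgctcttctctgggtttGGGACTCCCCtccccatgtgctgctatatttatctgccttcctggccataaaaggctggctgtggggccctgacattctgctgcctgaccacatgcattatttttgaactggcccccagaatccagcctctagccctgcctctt
Fgl2: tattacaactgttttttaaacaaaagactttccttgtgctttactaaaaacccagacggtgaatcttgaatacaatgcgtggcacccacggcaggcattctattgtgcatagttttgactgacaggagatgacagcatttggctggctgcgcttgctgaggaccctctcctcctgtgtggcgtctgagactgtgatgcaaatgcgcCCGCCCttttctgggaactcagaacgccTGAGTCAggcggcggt
Ldb3: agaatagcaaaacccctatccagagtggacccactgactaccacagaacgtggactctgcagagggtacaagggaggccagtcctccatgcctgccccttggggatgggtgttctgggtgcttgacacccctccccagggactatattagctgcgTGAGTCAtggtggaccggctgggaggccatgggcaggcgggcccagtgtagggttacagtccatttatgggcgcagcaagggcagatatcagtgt
The Myom1 capitals are a match to the kB consensus, which starts 144 bases before the listed start. The Fgl2 stretch holds GGGCGG, read on the opposite strand, and TGANTCA, the AP-1 motif, which starts 16 bases before the listed start. The Ldb3 stretch also holds TGANTCA, 95 bases before its start, and a kB match of Ldb3 lies beyond the stretch shown.

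Over all 47 genes with a promoter, with both strands searched, the kB consensus was found in 3 (6.38%), against 12.5% of the 8844 genes tested that have one. TATAAA was found in 9 (19.1%, against 8.80%), and GGGCGG, the GC box, in 24 (51.1%, against 69.9%). TGANTCA was found in 5 (10.6%, against 6.16%), CACGTG in 7 (14.9%, against 12.0%), GTGGGAA in 4 (8.51%, against 7.19%) and GGAATG in 6 (12.8%, against 14.1%). The kB matches were in Myom1, Ldb3 and Sfrp2. These counts describe letters in short windows.

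Secreted modulators of morphogen signalling form the next group. Sfrp2 encodes a secreted frizzled-related protein that binds Wnt ligands. It was bright throughout, at 13.70, 12.64 and 12.45 on the control arrays and 11.76 and 10.72 on the TNF-LTBR arrays, 3.23-fold lower with a gap of 0.69. Wnt7a, itself a Wnt ligand, lay at 7.76, 7.99 and 7.56 in control and at 6.00 and 7.00 in TNF-LTBR, near the dim end. Its controls were close together and its TNF-LTBR arrays were 1 unit apart. The other Wnt7a probe sets, both far below the minimum, differed by -0.01 and -0.23.

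All 16 bright genes of the Wnt list lay lower, against 5532 of all 10920 genes, with a median of -0.34. All 16 also lay lower with quantile normalization and median centring. On this list, which does not hold Wnt7a, only Sfrp2 and Fzd8, a Wnt receptor that differed by -0.34, were free of overlap. Apart from the selected Sfrp2, 1 of 15 was thus below all controls, against 6.34% of all genes. The number lower was 11 without TNF-LTBR replicate 1, 12 without TNF-LTBR replicate 2, 13 without control replicate 2 and 12 without control replicate 3. Ccn4, a secreted Wnt target, differed by -0.84, Fzd1 by -0.57, Dkk3 by -0.43 and the co-receptor gene Lrp6 by -0.38, all with overlapping groups.

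Smoc1 encodes a calcium-binding matricellular protein that antagonises BMP signalling. It lay at 12.72, 11.59 and 11.55 on the control arrays and at 10.17 and 10.66 on the TNF-LTBR arrays, 2.91-fold lower with a gap of 0.89. Bmp4, a BMP ligand, lay at 11.77, 11.22 and 11.41 in control. On TNF-LTBR arrays 1 and 2 it lay at 10.003 and 11.216, so only the first was clearly below and the gap was 0.0027, the smallest of all 54 genes. Of 28 genes of TGF-beta and BMP signalling, 18 lay lower and 10 higher (median -0.11). Apart from the selected Bmp4, 0 of 27 were below all controls, against 6.34% of all genes. Smoc1 is not among the 28. Ltbp2, a latent TGF-beta binding protein, was 2.13 higher with SDs of 3.40 and 3.14, since control array 2 and TNF-LTBR array 1 were both high.

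Sema3d encodes a secreted semaphorin that guides axons and vessels. It lay at 11.08, 8.93 and 9.71 on the control arrays and at 7.91 and 8.78 on the TNF-LTBR arrays, a difference of -1.56 with a gap of 0.15. Control array 1 carried much of its height. Its second probe set differed by -1.33 but overlapped by 0.13. Of 34 semaphorin, plexin and guidance genes, 17 lay lower and 17 higher, with a median of 0.00026. Epha3, an ephrin receptor, differed by -1.91, Sema3e by -1.23, Slit3 by -1.22 and Slit2 by 0.77, all with overlapping groups.

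Pdgfd, a growth factor for mesenchymal cells, lay at 11.97, 11.23 and 11.98 in control and at 10.31 and 11.13 in TNF-LTBR. TNF-LTBR array 2 was only 0.11 below the lowest control. Its second probe set differed by -0.63 with a small overlap. Of 23 growth factors and receptors 13 lay lower, with a median of -0.01 that was -0.20 without TNF-LTBR replicate 1. Leaving out TNF-LTBR replicate 2 instead gave 0.25. The largest of the others were Vegfc at 1.70, Vegfd at -1.15, Hgf at 0.89 and Fgf7 at 0.74, all overlapping. Nid2 encodes nidogen 2 of basement membranes. It lay at 7.73, 9.03 and 8.81 in control and at 7.67 and 7.69 in TNF-LTBR, so control array 1 was level with the TNF-LTBR arrays. Apart from the selected Nid2, 0 of 30 matrix genes were below all controls, against 6.34% of all genes. Of the 31 matrix genes, 21 lay lower (median -0.07). Without TNF-LTBR replicate 1 the number lower was 12 (median 0.064), and without TNF-LTBR replicate 2 the median was -0.29.

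Several genes of the cell surface were highest on control array 1. Lrrn3, a leucine-rich repeat membrane protein, lay at 8.996, 7.844 and 7.148 in control and at 6.62 and 5.89 in TNF-LTBR, 3.35-fold lower. Control array 3 was closer to TNF-LTBR array 1 than to the other controls. Dlk1, a Notch-related membrane protein that marks immature stromal cells, lay at 9.373, 7.628 and 7.501 in control and at 7.42 and 6.50 in TNF-LTBR. Enpep, an aminopeptidase that cleaves angiotensin II, differed by -1.17, with 10.14 on control array 1 against 8.38 to 8.83 on the other controls. Mertk, a receptor tyrosine kinase for the clearance of dying cells, lay at 11.30, 9.84 and 10.18 in control and at 9.58 and 9.72 in TNF-LTBR. Its ligand Gas6, on the coagulation list, differed by -0.58 with overlapping groups.

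Other surface genes differed less. Tmeff2, a membrane protein with follistatin-like domains, lay at 10.69, 10.39 and 10.63 in control and at 9.76 and 9.96 in TNF-LTBR. Another Tmeff2 probe set past the brightness minimum differed by -0.14 with overlapping groups. Heg1, a membrane protein of endothelial junctions, lay at 7.43, 8.02 and 8.20 in control and at 6.85 and 7.16 in TNF-LTBR, near the dim limit. The cadherin Cdh26 differed by -0.71, the potassium channel genes Kcnt2 and Kcnab1 by -0.82 and -0.76, the ADP-ribosyltransferase Art1 by -0.87, and the corticotropin-releasing hormone receptor Crhr1 by -0.91. A second Kcnab1 probe set also separated the groups, at -0.70.

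Of the intracellular regulators, Rasl11a, a small GTPase of the Ras family, had the largest difference. It lay at 10.62, 10.16 and 9.32 in control and at 8.84 and 8.02 in TNF-LTBR, 3.04-fold lower with a gap of 0.48. Rcan2, an inhibitor of the phosphatase calcineurin, lay at 11.46, 10.81 and 10.07 in control and at 9.56 and 9.15 in TNF-LTBR, 2.68-fold lower. In both genes the controls formed a staircase in which array 3 was nearest to the TNF-LTBR arrays. The second Rcan2 probe set differed by -0.71 with overlapping groups. Of 13 calcineurin and NFAT genes, a list drawn up after the values were seen, 9 lay lower (median -0.10). Apart from the selected Rcan2 and Lmcd1, 1 of 11 was below all controls, against 6.34% of all genes, the calcineurin subunit gene Ppp3cb at -0.17.

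Cyclic nucleotide signalling was represented by Pkia, an inhibitor of protein kinase A, Pde5a, the cGMP phosphodiesterase, and Adcy1, an adenylyl cyclase. Pkia lay at 12.17, 11.06 and 10.48 in control and at 10.24 and 10.13 in TNF-LTBR, a difference of -1.05. Pde5a lay at 11.74, 11.38 and 11.66 in control and at 10.43 and 11.20 in TNF-LTBR, a difference of -0.78. Its second probe set also separated the groups, at -0.74, and one more overlapped slightly at -0.48. Adcy1 was dim and differed by -0.72. Of 28 genes of this pathway, again listed after the values were seen, 17 lay lower (median -0.14, and -0.017 without TNF-LTBR replicate 2). Apart from the selected genes, 1 of 25 was below all controls, against 6.34% of all genes.

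The phosphatase genes Ptpn21 and Dusp16 had close values within each group. Ptpn21 lay at 8.67, 8.47 and 8.49 in control and at 7.82 on both TNF-LTBR arrays, and its gap of 0.65 was more than 3 times its control range of 0.20. Dusp16, a phosphatase of stress-activated MAP kinases, lay at 9.79, 9.55 and 9.94 in control and at 9.01 and 8.96 in TNF-LTBR. A dim second probe set of Dusp16 differed by -1.40 with a gap of 1.18. Nrbp2, a pseudokinase, differed by -0.74, and Lbh, a transcriptional cofactor of limb and heart, by -1.10. A second bright Lbh probe set differed by only -0.20 with widely overlapping groups, and a dim one by -0.94 with a slight overlap.

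Enzymes and scaffolds of glycogen stood among the 54. Pygm, the muscle form of glycogen phosphorylase, lay at 9.35, 7.87 and 7.38 in control and at 7.17 and 6.81 in TNF-LTBR. Stbd1, which tethers glycogen to membranes, lay at 11.47, 10.22 and 11.25 in control and at 9.71 and 10.13 in TNF-LTBR. Ppp1r3c, which targets protein phosphatase 1 to glycogen, lay at 12.31, 11.60 and 11.87 in control and at 10.41 and 11.58 in TNF-LTBR. In all 3 genes a single array came close to the other group, control array 3 in Pygm, control array 2 in Stbd1 and TNF-LTBR array 2 in Ppp1r3c. Of 20 glycogen genes, listed after the values were seen, 14 lay lower and 6 higher, with a median of -0.09. Apart from the selected genes, both TNF-LTBR arrays were below all controls for 3 of 17, against 6.34% of all genes. Of these Ppp1r3d, another phosphatase targeting subunit, was at -0.60, while glycogen synthase, Gys1, differed by 0.39 with overlapping groups.

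Imprinted genes, which are expressed from 1 parental copy, contributed Plagl1, Dlk1 and Airn. Plagl1, a zinc finger transcription factor, lay at 9.39, 9.85 and 9.99 in control and at 7.99 and 8.81 in TNF-LTBR, 2.54-fold lower with a gap of 0.58. A dim second probe set also separated the groups, at -0.70, and one more differed by -0.21 with overlap. Airn is a long non-coding RNA transcribed antisense to Igf2r, and differed by -0.71. Another Airn probe set past the brightness minimum differed by -0.34 with overlapping groups. Igf2r itself differed by -0.20 with overlapping groups. Of 15 imprinted genes, listed after the values were seen, 14 lay lower (median -0.26), against 5532 of all 10920 genes. Apart from the selected genes, 0 of 12 were below all controls, against 6.34% of all genes. The number lower was 7 without TNF-LTBR replicate 2, with a median of 0.078, and Meg3 at -1.21 and Peg3 at -1.09 were low mainly on control array 3 and TNF-LTBR array 2.

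Other nuclear genes were mostly dim. H1f10, a linker histone, lay at 7.69, 7.27 and 7.85 in control and at 6.73 and 6.56 in TNF-LTBR. Zfp788 differed by -0.85, the chromatin ATPase gene Morc4 by -0.77 and the corepressor-like gene Lcorl by -0.72, and the kinetochore gene Pmf1 by -1.10. Other Lcorl probe sets past the minimum differed by -0.25, -0.25 and -0.33, all with overlapping groups. The other long non-coding RNAs, A930005H10Rik and 0610040F04Rik, differed by -1.04 and -0.89. Aldh1a2, which makes retinoic acid, lay at 10.25, 9.67 and 9.05 in control and at 8.92 and 8.47 in TNF-LTBR. Of 11 genes of retinoic acid synthesis and response, listed after the values were seen, 9 lay lower (median -0.19, and -0.050 without TNF-LTBR replicate 1). Apart from Aldh1a2, 2 of 10 were below all controls, against 6.34% of all genes. Dhrs3, a retinal reductase, and the receptor gene Rarb were these genes, at -0.63 and -0.54.

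The remaining genes have varied or uncertain roles. Soga1 lay at 8.59, 8.50 and 9.07 in control and at 5.96 and 8.43 in TNF-LTBR, so its difference of -1.52 came from TNF-LTBR array 1 and was -0.29 without it. 1810010H24Rik lay at 8.77, 7.55 and 7.88 in control and at 6.25 and 6.95 in TNF-LTBR, and Pigz, an enzyme of GPI anchor synthesis, at 7.73, 7.58 and 7.68 in control and at 7.03 and 6.89. The controls of Pigz spanned only 0.15, but another Pigz probe set past the brightness minimum differed by -0.06 with overlapping groups. Hectd2, a ubiquitin ligase, differed by -0.86, the complement factor H-related gene Cfhr2 by -1.01, Ccdc167 by -0.85, and Ap2b1, a subunit of the clathrin adaptor, by -0.73. The brightest Ap2b1 probe set was the one counted, and its other bright probe set differed by 0.20.

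TNF-LTBR array 1 decided several of the differences. Without it, the difference was -0.21 for Crhr1, -0.22 for Art1, -0.15 for Ccdc167, -0.25 for Bmp4, -0.32 for A930005H10Rik, -0.35 for Ppp1r3c, -0.35 for Lmcd1 and -0.46 for Pmf1. In these genes the gap to the lowest control was between 0.0027 for Bmp4 and 0.15 for Lmcd1. When the rule was applied without each array in turn, 25 of the 54 genes were lost without control replicate 1. Leaving out TNF-LTBR replicate 1 lost 22, against 14, 7 and 5 without control replicate 3, control replicate 2 and TNF-LTBR replicate 2. The 11 genes that met the rule in all 5 of these settings were Fgl2, Sfrp2, Rasl11a, Sema3d, Smoc1, Rcan2, Plagl1, Lbh, Stbd1, Heg1 and Hectd2. Leaving out an array cannot make the groups overlap on the same probe set. These genes were also chosen on the same arrays, so the list is no test of them. Myom1 and Lrrn3 were lost without control replicate 1 through brightness alone, at differences of -1.79 and -1.24.

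Other probe sets of the same genes gave a mixed picture. The array carried 56 further probe sets for 32 of the 54 genes, most of them dim, and 42 of the 56 lay lower and 14 higher, with a median of -0.22. Both TNF-LTBR arrays were below all controls on 7 of the 56, or 12.5%, against 6.6% of 13694 further probe sets of all genes tested. Among the 23 past the brightness minimum the count was 5, or 21.7%, against 6.01% of 7915. These values come from the same 5 arrays and are no independent test. The 7 were those of Dusp16, Fgl2, Kcnab1, Pde5a, Plagl1, Ptpn21 and Soga1, at -0.19 for Ptpn21 and -0.24 for Soga1. In the opposite direction, a further probe set of Art1, of Hectd2 and of Dlk1, all of them dim, had both TNF-LTBR arrays above all controls, with differences of 1.02, 1.03 and 0.61. The share above all controls was not counted over the further probe sets of all genes. For the brightest probe sets of all genes it was 6.94%.

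**Figure D3:**
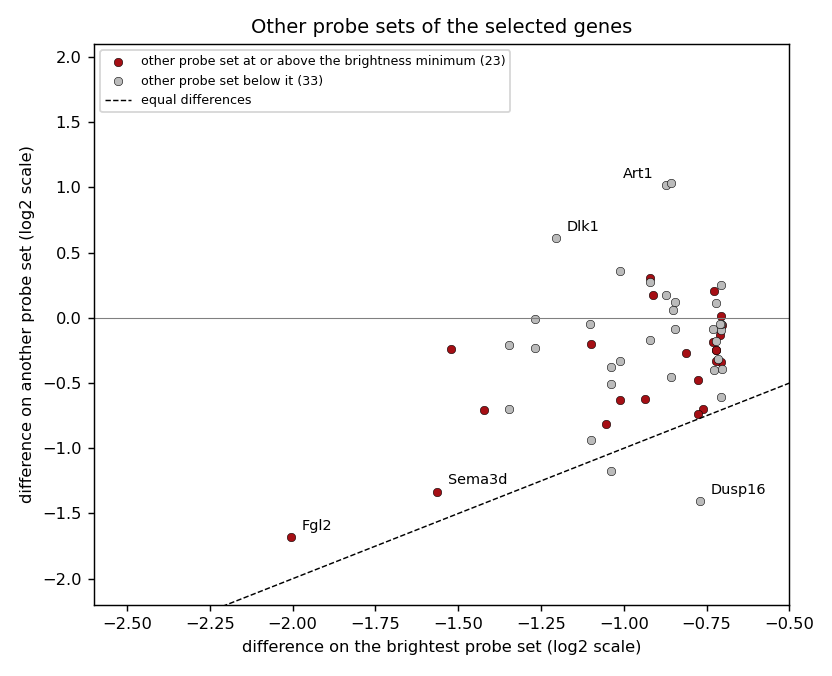
Difference between TNF-LTBR and control on each of 56 further probe sets (vertical axis, log2 scale) against the difference on the brightest probe set of the same gene (horizontal axis, log2 scale). Red points are the 23 further probe sets past the brightness minimum and grey points the dimmer ones; Fgl2 and Sema3d lie near the dashed line of equal differences, while most points lie between it and 0 and 14 lie above 0.

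Markers of other cell types varied with the arrays. Of 9 bright smooth muscle genes 7 lay lower, with a median of -0.65. Apart from the selected Ldb3, 1 of 8, Tpm2, was below all controls, against 6.34% of all genes. Synpo2 and Des were above all controls, against 6.94% of all genes. The summed intensity of the 9 genes was 12808 to 28270 on the control arrays, highest on array 1. On the TNF-LTBR arrays it was 12419 to 14517. The median was -0.17 without control replicate 1, and Myh11, Cnn1, Myocd, Actg2 and Casq2 were below the brightness minimum. Tagln, an actin-binding protein of smooth muscle, was the furthest apart at -2.02, but it ran from 6.46 to 11.70 in control and lay at 10.38 and 5.15 in TNF-LTBR. The part of smooth muscle cells in the lower values of Myom1, Ldb3, Fhl1 and Lmcd1 was not tested.

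The other marker lists depended on single arrays. The summed intensity of 14 fibroblast and pericyte genes was 57740 to 97140 in control, lowest on control array 1, and 84436 to 99592 in TNF-LTBR, with 8 genes lower and a median of -0.07 that was 0.38 without TNF-LTBR replicate 1. For 8 macrophage genes the sum was 3037 to 8851 in control and 3443 to 9760 in TNF-LTBR, with 5 lower (median -0.11). Without TNF-LTBR replicate 2 the number lower was 0 (median 0.70), and without TNF-LTBR replicate 1 it was 6 (median -0.87). The genes Ptprc, Itgam, Aif1 and Fcer1g were below the minimum. For 10 endothelial identity genes it was 3815 to 4455 and 3940 to 3958, with 6 lower (median -0.10, and 0.088 without TNF-LTBR replicate 2). Of 8 lymphocyte genes only 1 was bright enough, and it differed by 0.05. Of 10 Notch genes only Hes1, a Notch target, was below all controls, at -0.66, against 6.34% of all genes. Lists without a selected gene gave 5 of 10 Notch genes lower (median 0.0075). They gave 9 of 12 genes of the IGF axis lower (-0.12), 13 of 16 junction genes (-0.11), 11 of 18 transport and channel genes (-0.04), 10 of 22 lipid genes (0.02) and 5 of 10 RGS genes (0.04). The selected channel genes Kcnt2 and Kcnab1 are not on the transport and channel list. The median of the IGF axis was 0.013 without TNF-LTBR replicate 2, and that of the RGS genes was -0.17 with TNF-LTBR replicate 1 left out.

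**Figure D4:**
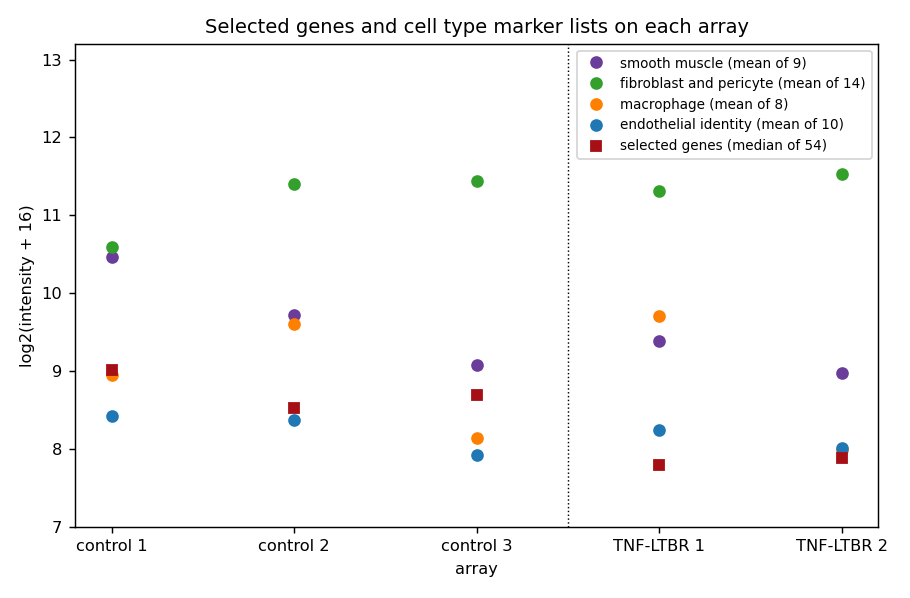
Mean log2(intensity + 16) of 4 lists of cell type markers (circles; genes past the brightness minimum) and the median of the 54 selected genes (red squares) on each of the 5 arrays. The selected genes lie at 8.53 to 9.01 on the control arrays and at 7.80 and 7.89 on the TNF-LTBR arrays, the smooth muscle genes are highest on control array 1, and the macrophage genes are high on control array 2 and TNF-LTBR array 1.

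The limits of the rule cut through a continuous range. Cdh26, Airn and Pigz were just inside the difference limit, at -0.71, -0.71 and -0.70, while Scaf1, Clca4a and Atmin lay just outside at -0.70 each. On brightness, Myom1, 0610040F04Rik and H1f10 were just inside, with means of 7.19, 7.21 and 7.22, and Mme, Spire2 and Nanos1 just outside at 7.17, 7.14 and 7.13. Bmp4, Ppp1r3c and A930005H10Rik had the smallest gaps, and Klhl13, Heph and Id4 missed separation by 0.03, 0.04 and 0.04. Heph, a copper-dependent iron oxidase, differed by -1.75 without being selected. Itga7, the muscle laminin receptor subunit left out by its symbol, lay at 8.85, 8.82 and 8.85 in control and at 7.93 and 8.11 in TNF-LTBR.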

How the data were processed

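Expression was measured on 5 one-colour arrays, 3 control and 2 TNF-LTBR, grouped by sample title. The deposited values are intensities, 1 per probe set and array, with GCOS 1.4 named in the submitters' processing notes. No source used here states the summary algorithm. The mean over probe sets, with 2% trimmed at each end, was 500.0 on every array, and medians ran from 109.9 to 120.7. Of 45101 probe sets, 34958 had 1 gene symbol, 932 several and 9211 none; only the first were used. Intensities were transformed as log2(intensity + 16), which understates folds of dim genes, and each gene was represented by its brightest probe set. The fit across all genes used limma 3.58.1 in R 4.3.3 (eBayes with trend, Benjamini-Hochberg), tested on simulated data. The number of arrays limits the precision.

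The genes and the lists were chosen with earlier results of these data known: 18 lists of pathway and cell type genes, and 6 further lists drawn up after the values were seen. Given array by array were Myom1, Fgl2, the 10 genes with the largest difference, the 10 with the largest gap and those on the 18 lists; other genes shown that way were picked after their values were seen. Of the other genes of a list, up to 4 with the largest difference were named, and beside these, after their values were seen, Igf2r, Itga7, Myl4 and some whose groups did not overlap. Alternatives were other pseudocounts, filters and normalizations, no shared-sequence probe sets, and leaving out each array. Promoters came from RefSeq, GRCm38.p6.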

Additional observations from a re-analysis of the deposited data

How the results depend on the processing

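The count of genes called lower by limma was 0 in all 17 settings. The number of genes that met the rule was 54, and it was 35 with a pseudocount of 64, 253 without a brightness filter and 22 among the brightest 40% of genes. When each array was left out, it ranged from 62 without control replicate 1 to 415 without TNF-LTBR replicate 2. Fewer arrays separate more easily, so these counts cannot be set directly beside the 54. Why they differ between the arrays left out was not tested. The median difference of the 54 genes was -0.90 and ranged from -1.03 to -0.77 without 1 array. Without probe sets of shared-sequence suffixes, the difference turned to 0.61 for Dlk1, 0.30 for Srpk3, 0.17 for Crhr1 and 0.17 for Art1. Each was on a dimmer probe set, though those of Srpk3 and Crhr1 were still past the brightness minimum. No probe set was then left for 5 genes. Of 589 differences of single genes recomputed over the settings, 549 moved by less than 1 control SD and 36 by more. The other 4, those of Dlk1, Srpk3, Crhr1 and Art1, changed sign. Leaving out 1 of 3 controls cannot move a difference by 1 control SD, so those settings could only fall among the 549. The replicate block, with the same values as without control replicate 3, was also counted there. The count of 549 is thus no measure of stability. With the replicate number as a block, which drops control replicate 3 from the comparison, the median difference was -0.92 and limma again called 0 genes. Same-numbered arrays did not deviate together in both pairs (r across genes 0.13 for number 1 and -0.80 for number 2), so the numbers were not taken as pairs. With the window cut to the 100 bases before the start, the kB consensus was in 1 promoter, TATAAA in 4 and GGGCGG in 21. Low brightness also limits the precision: on 21 of the 54 genes at least 1 array lay below the minimum of 7.17.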

Other observations

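Probe sets without a single gene symbol were also examined with the same limits. Of 2348 that were bright enough, 7 had both TNF-LTBR arrays below all controls with a difference of -0.7 or less. They were not named here.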
